A study of Mus musculus with 4 samples.

Results

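Barcodes that held platelet and megakaryocyte transcripts were examined in single-cell RNA-seq of ascites from mice with ovarian tumors. A barcode is 1 droplet of the 10x Genomics assay, and a UMI is 1 counted mRNA molecule. The members were selected on measured counts: they had 100 to 4800 genes, at most 15% mitochondrial UMIs and at most 50% hemoglobin UMIs (Hba- and Hbb- genes), and they held at least 5 UMIs of Ppbp, Pf4, Tubb1, Gp9 and Nrgn together, with at least 3 of these 5 genes detected. Of 132644 barcodes within the limits on genes and mitochondrial UMIs, 249 met this rule (0.188%). Levels of the 5 genes in the members are therefore a description, and no level in members was tested against its level in other barcodes.

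Female FVB mice carried Br-Luc cells, a syngeneic ovarian tumor line injected intraperitoneally, in an immunocompetent host. They received a control siRNA (siCont-LNA) or an siRNA against Fxr1 (siFXR1-LNA), both modified with locked nucleic acid (LNA) and delivered intraperitoneally in jetPEI, a polymer carrier, and ascites was collected 6 weeks after tumor cell injection and treated with ACK buffer to lyse red cells. Ascites of 3 mice was pooled for each library and each group had 2 libraries, so p-values measure the spread between pools. The comparison of the groups asks what siRNA against Fxr1 did to the cells around the tumor. All mice of both groups bore tumors and received jetPEI with an siRNA, and no library came from an untreated mouse.

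The 4 libraries held 17309 to 54665 barcodes and 78179267 to 113606837 UMIs. Hemoglobin genes made up 29.5% and 41.1% of all UMIs with siCont-LNA against 10.004% and 9.11% with siFXR1-LNA. Fxr1, the targeted gene (chromosome 3, 34019943 to 34070322, GRCm38), was not lower in the libraries labelled siFXR1-LNA. Values of the 4 libraries are given in library order, which is siCont-LNA replicate 1, siCont-LNA replicate 2, siFXR1-LNA replicate 1, siFXR1-LNA replicate 2, and levels are in CPM, the UMIs of a gene scaled to a common total of UMIs per library. Over all barcodes Fxr1 had 57.3, 36.6, 104 and 74.4 CPM in library order, and 81.3, 62.1, 116 and 81.8 CPM with hemoglobin UMIs left out of the total, where siCont-LNA replicate 1 stood level with siFXR1-LNA replicate 2. In the members it had 120, 31.9, 121 and 90.2 CPM, from 8, 13, 28 and 21 UMIs (log2 fold change 0.92 ± 0.57 SE, adjusted p = 0.634, edgeR quasi-likelihood test). Every direction between groups given here is one between libraries labelled siCont-LNA and siFXR1-LNA, in which Fxr1 over the whole library did not follow the label. Between 598 and 2882 barcode sequences occurred in both libraries of a pair (3.45 to 7.88% of the smaller library), and 0 of the shared barcodes were members in both libraries.

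Platelets are fragments shed by megakaryocytes and carry no nucleus. They hold RNA made in the megakaryocyte, store chemokines and clotting proteins in granules, and stick to injured vessels and to leukocytes through surface receptors. Of the rule genes, Ppbp and Pf4 encode chemokines of the alpha granules, Tubb1 the beta-tubulin of the platelet's marginal band, Gp9 a subunit of the receptor for von Willebrand factor, and Nrgn a calmodulin-binding protein. Clec1b encodes CLEC-2, the platelet receptor for podoplanin, and Alox12 the platelet 12-lipoxygenase. Neither was used by the rule.

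The rule genes lie on several chromosomes of GRCm38. Ppbp (chromosome 5, 90768518 to 90770063) and Pf4 (chromosome 5, 90772435 to 90773383) are neighbors on the plus strand. Gp9 lies on chromosome 6 (87778072 to 87779768), Tubb1 on chromosome 2 (174450695 to 174457882) and Nrgn on chromosome 9 (37544492 to 37552904). Clec1b lies on chromosome 6 (129397297 to 129409335) and Alox12 on chromosome 11 (70241457 to 70255353).

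The promoters of the 2 chemokine genes and of Gp9 are shown because Pf4 also occurred in most macrophage-list barcodes outside the members, as described further on, whereas Gp9 hardly did. Each is the 250 bases before the gene's start from RefSeq (GRCm38.p6, plus strand): Ppbp at chr5:90768268-90768517, Pf4 at chr5:90772185-90772434 and Gp9 at chr6:87777820-87778069. Capitals mark GATAA, a core motif of GATA factors, and AGGAAG, a core motif of ETS factors such as FLI1, on either strand, so that AGGAAG can read CTTCCT. The 2 motifs did not overlap.
Ppbp promoter: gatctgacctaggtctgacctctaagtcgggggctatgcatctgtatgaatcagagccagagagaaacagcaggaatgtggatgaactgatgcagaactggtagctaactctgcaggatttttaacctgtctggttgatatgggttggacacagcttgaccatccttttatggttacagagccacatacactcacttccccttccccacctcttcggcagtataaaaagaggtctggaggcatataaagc
Pf4 promoter: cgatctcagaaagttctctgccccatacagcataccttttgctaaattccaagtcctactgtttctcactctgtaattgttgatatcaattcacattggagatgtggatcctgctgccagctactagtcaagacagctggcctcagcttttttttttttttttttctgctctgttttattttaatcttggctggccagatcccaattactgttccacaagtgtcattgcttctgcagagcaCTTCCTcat
Gp9 promoter: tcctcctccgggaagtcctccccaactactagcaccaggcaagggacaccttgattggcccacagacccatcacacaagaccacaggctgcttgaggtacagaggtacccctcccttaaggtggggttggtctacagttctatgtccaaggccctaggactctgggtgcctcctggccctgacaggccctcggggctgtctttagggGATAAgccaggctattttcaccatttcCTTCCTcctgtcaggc
Ppbp held neither motif in this window, Pf4 held 1 AGGAAG, and Gp9 held 1 of each. GATAA occurred in 6221 of 27025 mouse promoters of this length (23.0%) and in 17 of the 66 that matched the 86 genes of the platelet lists (25.8%). AGGAAG occurred in 7879 of all promoters (29.2%) and in 26 of the 66 (39.4%). A match of these letters is a description and not a binding site.

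Members were rare in every library and unevenly spread. They numbered 13 of 36311 barcodes in siCont-LNA replicate 1 (0.0358%, exact 95% binomial interval 0.0191 to 0.0612%) and 143 of 25115 in siCont-LNA replicate 2 (0.569%, 0.480 to 0.670%). In siFXR1-LNA they numbered 49 of 54344 in replicate 1 (0.0902%, 0.0667 to 0.119%) and 44 of 16874 in replicate 2 (0.261%, 0.190 to 0.350%). These intervals cover counting error only. The rule bars barcodes with over 50% hemoglobin UMIs, which were 16970, 15943, 2295 and 2473 of the barcodes within the limits on genes and mitochondrial UMIs, in library order, and without them in the total the shares were 0.0672%, 1.56%, 0.0941% and 0.306%. Both siFXR1-LNA libraries lay between the 2 siCont-LNA libraries, so the groups overlapped. The mean share was 0.303% ± 0.377 (SD, n = 2) in siCont-LNA and 0.175% ± 0.121 (SD, n = 2) in siFXR1-LNA (difference -0.127 percentage points, p = 1, two-sided exact permutation test over libraries). With 2 libraries against 2 the smallest p this test can give is 0.333. siCont-LNA replicate 2 alone held 143 of the 249 members, and without it the difference turned to 0.140 percentage points.

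**Figure D1:**
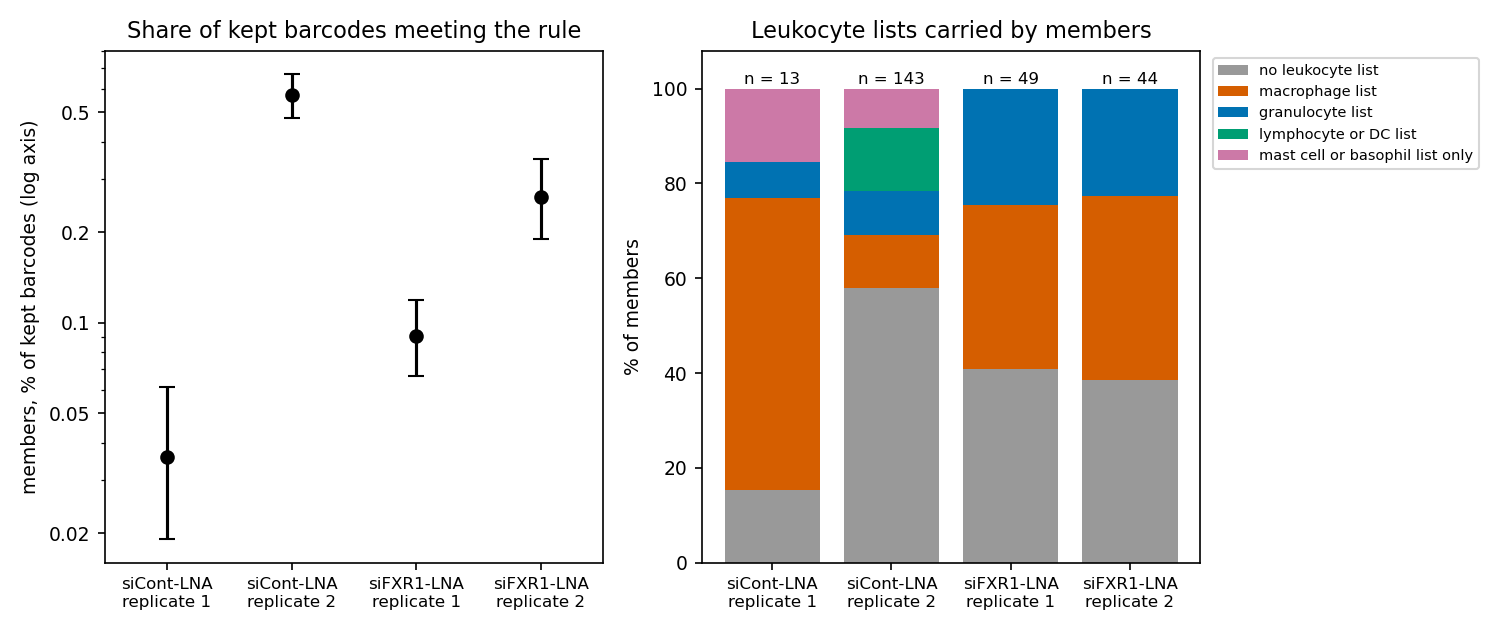
Left, members as a percent of barcodes within the limits on genes and mitochondrial UMIs (log axis), 1 point for each library with its exact 95% binomial interval as a bar. The siFXR1-LNA libraries, at 0.0902% and 0.261%, lie between the siCont-LNA libraries, at 0.0358% and 0.569%. Right, the percent of the 13, 143, 49 and 44 members in each class of leukocyte list, where members with no list are the largest class in siCont-LNA replicate 2 and siFXR1-LNA replicate 1 and equal the macrophage class, with 17 members each, in siFXR1-LNA replicate 2.

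The limit on hemoglobin removed members unevenly. Another 71 barcodes met all other parts of the rule with over 50% hemoglobin UMIs, of which 70 were in siCont-LNA replicate 2 and 1 in siFXR1-LNA replicate 2. A further 28 met the rule for the 5 genes and failed the limits on genes or mitochondrial UMIs, and 26 of them had over 4800 genes.

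Most members were shallow. They held a median of 1625 UMIs (500 to 23106) and 817 genes (267 to 4785). The files hold no barcode with fewer than 500 UMIs, so barcodes with less RNA were not analysed here. The median member held 939 UMIs in siCont-LNA replicate 2, against 3814 in siCont-LNA replicate 1, 2269 in siFXR1-LNA replicate 1 and 3151 in siFXR1-LNA replicate 2. Mitochondrial UMIs took a median of 0.895%, 0.751%, 0.538% and 0.487% in library order, so the groups did not overlap (p = 0.333, exact permutation test, adjusted p = 1 over 17 such quantities). Hemoglobin took 3.86%, 3.76%, 3.48% and 0.365% (p = 0.333, exact permutation test).

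The 5 rule genes together made up a small part of each member. The median member held 12 of their UMIs (5 to 240), with medians of 9, 13, 11 and 11 in library order. As a share of UMIs the medians were 0.326%, 1.42%, 0.453% and 0.339%. Only siCont-LNA replicate 2 stood over 1%, and it was also the shallowest. All 5 genes were detected in 67 members, 4 in 77 and the required 3 in 105. Pf4 was detected in 245 members (98.4%), Ppbp in 218 (87.6%), Nrgn in 213 (85.5%), Gp9 in 154 (61.8%) and Tubb1 in 128 (51.4%).

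**Figure D2:**
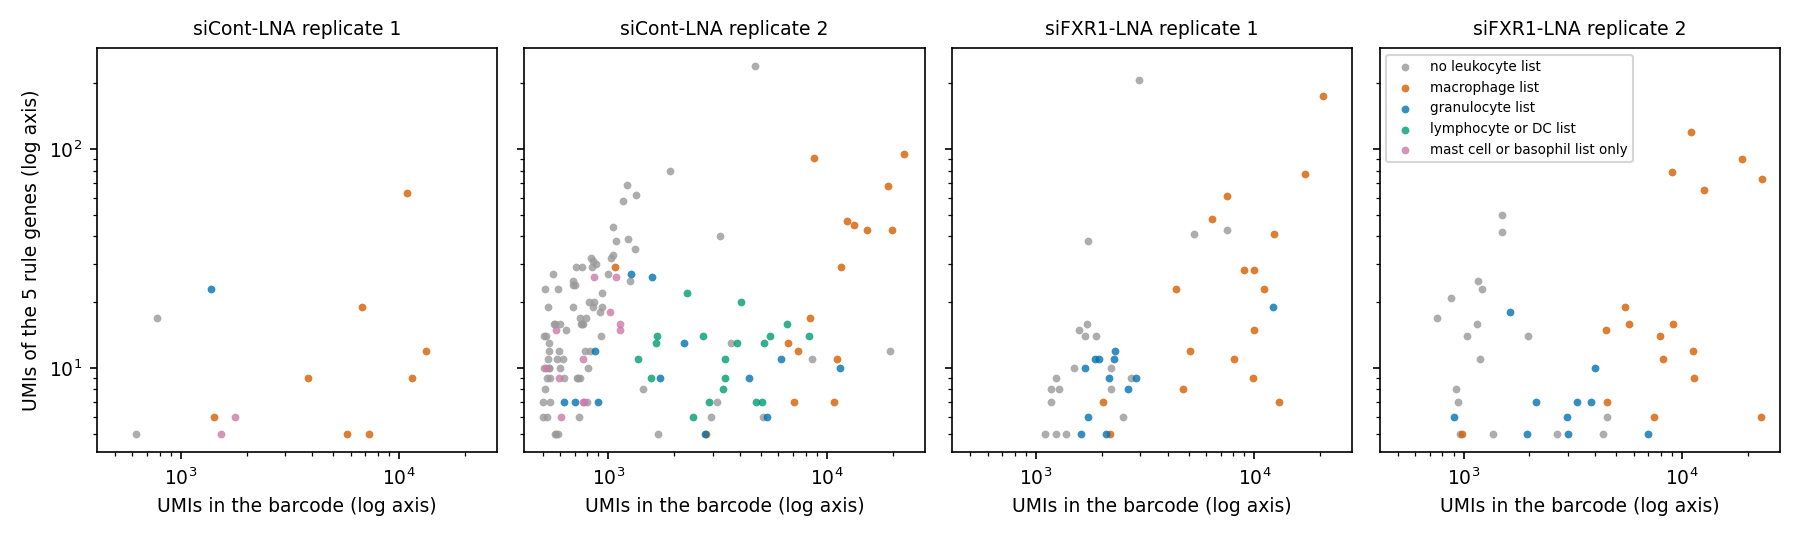
UMIs of the 5 rule genes against all UMIs of each member (both axes logarithmic), 1 panel for each library and 1 point for each of the 249 members, colored by the leukocyte list it carries. Members with no list center on 898.5 UMIs and members of the macrophage class on 8963.5 UMIs, while both hold similar numbers of rule-gene UMIs, with medians of 14 and 15.5. A list needs at least 5 UMIs of its markers, so this order in depth is partly set by the definition of the classes.

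Levels of the rule genes in the members are given as CPM of summed counts. In such sums fewer barcodes of a type and less RNA in each cannot be told apart. Ppbp had 661, 1728, 667 and 700 CPM in library order. Pf4 had 1668, 2592, 3604 and 2628 CPM. Tubb1 had 105, 768, 47.4 and 180 CPM. siCont-LNA replicate 2 was highest for Ppbp and Tubb1, and siFXR1-LNA replicate 1 for Pf4. Gp9 had 30.1, 606, 172 and 167 CPM, and Nrgn had 301, 1483, 560 and 245 CPM. In siCont-LNA replicate 1 the Gp9 level rested on 2 UMIs and that of Tubb1 on 7.

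The label was checked with Clec1b and Alox12, the given markers that the rule did not use. At least 1 UMI of either was found in 167 of 249 members (67.1%), against 565 of 94714 other barcodes with at most 50% hemoglobin UMIs (0.597%). By library the share was 4 of 13 members in siCont-LNA replicate 1 (30.8%), 116 of 143 in siCont-LNA replicate 2 (81.1%), 24 of 49 in siFXR1-LNA replicate 1 (48.98%) and 23 of 44 in siFXR1-LNA replicate 2 (52.3%). In the other barcodes it ran from 0.348 to 1.71%. Clec1b also occurred in other barcodes that held DC genes, as given further on, so 1 UMI of it alone does not mark a platelet. Clec1b had 75.1, 682, 146 and 125 CPM in the members and Alox12 had 15.03, 513, 107.6 and 120 CPM. In siCont-LNA replicate 1 the 13 members held 1 UMI of Alox12 and 5 of Clec1b, and 2 of them had Gp9, so the platelet label rested on few molecules there.

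The number of UMIs and the number of genes the rule asks for set different edges. At the edge in UMIs these markers hardly differed: the 24 members just inside it, with 5 rule-gene UMIs, had Clec1b or Alox12 in 9 (37.5%), and 36 barcodes just outside it, with 4 UMIs of at least 3 of the genes, had either in 13 (36.1%). At the edge in genes they did: barcodes with at least 5 rule-gene UMIs from 2 genes numbered 669, of which 35 had Clec1b or Alox12 (5.23%) and 597 carried the macrophage list (89.2%). Those with at least 5 UMIs from 1 gene numbered 5038, of which 59 had Clec1b or Alox12 (1.17%) and 4764 carried the macrophage list (94.6%).

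The genes most enriched in the members outside the rule were platelet receptors and platelet signaling genes. Of 2855 genes with at least 50 UMIs in members, the 15 with the largest ratio of CPM in members to CPM in other barcodes included 3 rule genes and 13 genes of the platelet lists. After Tubb1, with a ratio of 1237, came Gp5 with 651, Gp9 with 591, Alox12 with 496 and Gp1bb with 439. Gp5 and Gp1bb encode further subunits of the von Willebrand factor receptor. The others were Mpig6b (421), an inhibitory receptor of megakaryocytes and platelets, Treml1 (212), a receptor of the alpha granule membrane, Clec1b (212), Nrgn (161), Gng11 (134), a G protein subunit, Myl9 (98.8), a myosin light chain, Tpm2 (96.8), a tropomyosin, Gp1ba (93.8), which binds von Willebrand factor, Ctla2a (91.0) and Itga2b (82.8), the alpha subunit of the fibrinogen receptor. Of the 30 genes with the largest ratios, 20 were on the platelet lists. These ratios describe the selection, and Ppbp stood lower, at 71.2.

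**Figure D3:**
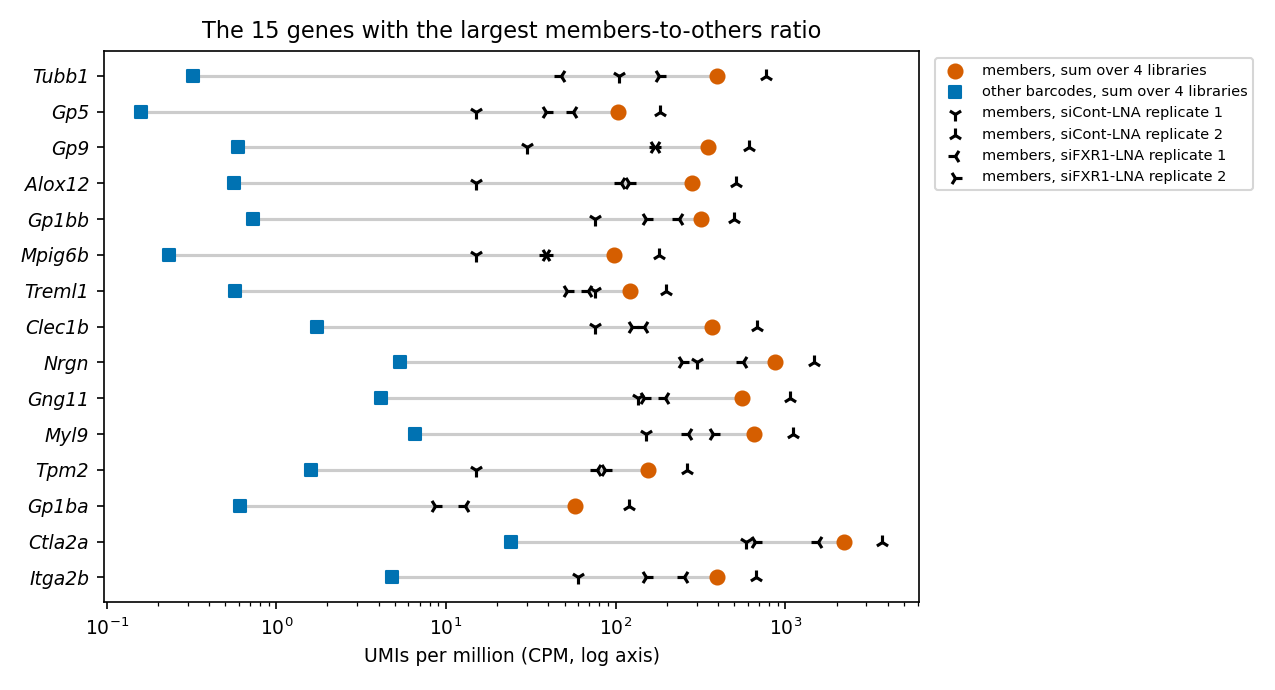
CPM (log axis) of the 15 genes with the largest ratio of members to other barcodes, with circles for the sum over the members of all 4 libraries, squares for the same sum over other barcodes, and a small mark for the members of each library. Every mark for members lies above the square of the same gene, apart from Gp1ba in siCont-LNA replicate 1, which had 0 UMIs in the members and is not drawn.

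Adhesion receptors stood highest among the platelet lists. Of 13 genes, 12 were detected in members, all 12 at a higher CPM than in other barcodes in sums over the 4 libraries. The counts and ratios of the other platelet lists are of such sums too. Within single libraries not every gene stood higher. Pecam1 had 30.1, 88.4, 25.8 and 21.5 CPM in members against 34.5, 71.1, 7.31 and 15.5 CPM in other barcodes, in library order. The median ratio was 82.8 over the list, against 0.981 over 14546 genes detected in both. The platelet lists include the 5 rule genes, whose higher level in members the rule itself sets. Gp9 is on this list, Ppbp and Pf4 are granule cargo, Tubb1 is a cytoskeleton gene and Nrgn is among the other platelet-enriched genes. Cd9, a tetraspanin of the platelet surface, had 376, 1380, 366 and 378 CPM in members, in library order. Itga2b had 60.1, 670, 254 and 150 CPM, and Itgb3, its beta subunit, had 60.1, 601, 215 and 103 CPM. In each case siCont-LNA replicate 2 was highest. Jam3 was the member of this list with 0 UMIs.

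Agonist receptors and signaling genes were higher in members for 16 of 18 genes, with a median ratio of 4.13. Rap1b, a small GTPase of integrin activation, had 1052, 778, 672 and 709 CPM. Gng11 had 135, 1063, 194 and 146 CPM and Fermt3, encoding kindlin-3, had 361, 493, 288 and 279 CPM. Receptors were sparse. P2ry12, an ADP receptor, had 29 UMIs over all members, and F2rl3, encoding PAR4, had 1.

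Granule cargo was higher in members for 14 of 15 genes (median ratio 2.43). Srgn, the proteoglycan that packs granule proteins and is also made by leukocytes, had 1428, 1576, 2364 and 1675 CPM. Thbs1, thrombospondin 1, had 240, 1537, 1356 and 1185 CPM. F13a1, a clotting factor subunit that macrophages also express, had 781, 383, 1094 and 1275 CPM. Selp, encoding P-selectin, had 13 UMIs over all members and Vwf had 117. The 5 eicosanoid enzymes were all higher in members with a median ratio of 1.63. Alox5ap, which leukocytes also express, had 977, 1011, 977 and 915 CPM, whereas Ptgs1, encoding COX-1, had 240, 184, 64.6 and 55.8 CPM.

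All 14 cytoskeleton genes were higher in members (median ratio 3.17). Myh9, nonmuscle myosin heavy chain, had 436, 1029, 560 and 515 CPM, Tln1, talin, had 842, 864, 495 and 610 CPM, and Myl9 had 150, 1112, 267 and 374 CPM. All 11 of the other platelet-enriched genes were higher (median ratio 6.83). Ctla2a, a cathepsin inhibitor, had 586, 3721, 1554 and 661 CPM. Of 10 megakaryocyte transcription factors 6 were higher (median ratio 2.44). Fli1 and Runx1, which leukocytes also express, led them with 158 and 153 UMIs. Gata1, Gfi1b and Nfe2, the factors of the megakaryocyte and erythroid lineage, had 10, 4 and 38 UMIs over all 249 members.

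Leukocyte transcripts shared many of these barcodes. A barcode carried a leukocyte list when it held at least 5 UMIs from at least 3 of the list's markers, and 127 of 249 members carried at least 1 of 8 lists (51.0%). The count depends on this limit: with 2 UMIs from 2 markers the shares were 100%, 81.1%, 73.5% and 79.5% in library order, and with 10 UMIs 76.9%, 25.9%, 51.02% and 56.8%. The macrophage list was carried by 58 members, the granulocyte list by 44, the mast cell or basophil list by 25, the B cell list by 17, the monocyte list by 13, the T cell list by 11, the DC list by 2 and the NK cell list by 0, and 35 members carried 2 or more lists. Each member was then placed in 1 class, with the macrophage list first: 58 members fell in the macrophage class, 36 in the granulocyte class, 19 in the lymphocyte or DC class and 14 carried the mast cell list alone. The other 122 carried no list. How platelet and leukocyte transcripts came to share a barcode was not tested.

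Macrophage and granulocyte genes gave the most leukocyte UMIs in the members, with 790, 1535, 880 and 1596 UMIs of the macrophage list and 58, 1602, 1150 and 963 of the granulocyte list in library order. C1qb, a complement subunit of tissue macrophages, had 1612 UMIs in 88 members, of which 52 were in the macrophage class, 19 carried no list and 14 were in the granulocyte class. C1qa had 1125 UMIs in 81 members, C1qc had 1088 in 79, and Csf1r, the receptor for the macrophage growth factor CSF1, had 346 in 62. Monocyte genes overlapped with these members. Chil3, a chitinase-like protein of monocytes and macrophages, had 663 UMIs in 51 members (31 of the macrophage class), and Ly6c2 had 360 in 47.

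Of the granulocyte genes, S100a9, a calcium-binding protein abundant in neutrophils, had 1656 UMIs in 114 members, which took in all 36 of the granulocyte class, 18 of the macrophage class and 45 with no list. S100a8, its partner, had 1341 UMIs in 114 members. Retnlg and Csf3r, the G-CSF receptor, were narrower, with 560 UMIs in 44 members and 87 UMIs in 43 members. Ltf, a late granule gene, had 0 UMIs.

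Lymphocyte genes were found mainly in 1 library, since all 19 members of the lymphocyte or DC class were in siCont-LNA replicate 2. Cd79a, a part of the B cell receptor, had 160 UMIs in 19 members (13 of this class), and Ighm had 91 UMIs in 26. Cd3g and Cd3d, parts of the T cell receptor complex, had 36 UMIs in 14 members and 32 in 16. NK genes were at or near 0: Nkg7, which T cells also express, had 30 UMIs in 11 members, Eomes had 3, and Ncr1, Klrb1c, Klre1, Gzma and Prf1 had 0. Cd209a led the DC list with 57 UMIs in 8 members and Xcr1 had 0.

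Mast cell genes were spread thinly. Cma1, a chymase, had 183 UMIs in 100 members, of which 52 carried no list, and Tpsb2, a tryptase, had 96 UMIs in 63 members. Members with the mast cell list were 5 of 13 in siCont-LNA replicate 1 (38.5%), 20 of 143 in siCont-LNA replicate 2 (13.99%) and 0 of 49 and 0 of 44 in the siFXR1-LNA libraries, for which exact 95% intervals allow up to 7.25% and 8.04%. Other barcodes carried it in 47.6%, 14.1%, 0.0769% and 0.223%. In both siCont-LNA libraries the share in members was no higher than in other barcodes, but the 2 kinds of barcode differed in depth. With each barcode thinned to 500 UMIs, siCont-LNA replicate 1 had 7.69% of members against 4.65% of other barcodes. In siCont-LNA replicate 2 it was 4.1958% against 3.25%, so members stood higher in both at equal depth, on few members. In the siFXR1-LNA libraries 0 members carried the list at this depth. Of genes shared by all leukocytes, Cd52 had 843 UMIs in 118 members, Laptm5 had 555 in 142, Coro1a had 422 in 99 and Ptprc, encoding CD45, had 273 in 97.

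The share of members with any leukocyte list was 84.6% in siCont-LNA replicate 1, 42.0% in siCont-LNA replicate 2, 59.2% in siFXR1-LNA replicate 1 and 61.4% in siFXR1-LNA replicate 2. The groups overlapped (difference of means -3.01 percentage points, p = 1, two-sided exact permutation test). In the other barcodes the shares were 78.2%, 82.9%, 19.5% and 69.1%. Depth differed between members and other barcodes, so each was also thinned to 500 UMIs, which left out 0 barcodes for being shallower. The shares in members were then 46.2%, 15.4%, 18.4% and 25.0%, and in other barcodes 23.2%, 32.4%, 6.47% and 27.9%. Members exceeded other barcodes in 1 library of each group at this depth.

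The granulocyte, monocyte and mast cell lists had shares in members that did not overlap between the groups. Of the 6 ways to split 4 libraries into groups of 2, 2 give groups that do not overlap, so this alone says little. The granulocyte list was carried by 7.69% and 9.79% of members with siCont-LNA against 28.6% and 34.1% with siFXR1-LNA (p = 0.333, exact permutation test, adjusted p = 1), with 1 member behind the first value. The monocyte list was carried by 7.69%, 2.10%, 8.16% and 11.4% (p = 0.333, exact permutation test, adjusted p = 1), again with 1 member behind the first value, and the mast cell list by the shares given above (p = 0.333, exact permutation test, adjusted p = 1). In other barcodes the granulocyte list was carried by 1.78%, 12.2%, 12.4% and 41.4%. The monocyte list was carried there by 3.01%, 7.18%, 1.77% and 9.26%, and the groups overlapped. The macrophage list was carried by 61.5%, 11.2%, 34.7% and 38.6% of members, so siCont-LNA replicates 1 and 2 were highest and lowest.

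Members with no list were shallower than those of the macrophage class in every library, with medians of 701, 747, 1690.5 and 1183 UMIs in library order. A list asks for at least 5 UMIs of its markers, so deeper barcodes carry one more readily. The order in depth, and the rule-gene shares that follow from it, are thus partly set by how the classes were defined. The 122 with no list had a median of 898.5 UMIs, of which rule genes took a median of 1.82% (0.0618 to 6.999%). The 58 of the macrophage class had a median of 8963.5 UMIs, of which rule genes took 0.244%. The granulocyte class had 2144 UMIs and 0.338%, the lymphocyte or DC class 3407 UMIs and 0.264%, and members with the mast cell list alone 812.5 UMIs and 1.43%. Members of the macrophage class had medians of 7001, 10961, 8947 and 8980 UMIs and were also deeper than other barcodes with this list, which had 4733.5, 8364, 5829 and 7711.

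Pf4 made up a larger part of the rule-gene UMIs in the macrophage class than in members with no list in every library. It was 75.0%, 61.0%, 81.8% and 80.8% in the macrophage class and 36.4%, 29.7%, 63.048% and 46.7% with no list, and in the granulocyte class it was 17.4%, 28.9%, 53.4% and 38.2%. In siCont-LNA replicate 1 the value with no list rested on 22 rule-gene UMIs of 2 members. That of the granulocyte class rested there on 23 UMIs of 1 member. Gp9 or Tubb1 was found in 105 of 122 members with no list (86.1%), in 44 of 58 of the macrophage class (75.9%) and in 25 of 36 of the granulocyte class (69.4%). Clec1b or Alox12 was found in 94 of the 122 (77.0%), in 31 of the 58 (53.4%) and in 73 of all 127 with a list (57.5%). These totals rest on siCont-LNA replicate 2, which held 83 of the 122. In siFXR1-LNA replicate 1 the order turned, with Gp9 or Tubb1 in 14 of 17 of the macrophage class and 11 of 20 with no list, and Clec1b or Alox12 in 9 of 17 and 10 of 20.

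Single members show the range. The member with the most rule-gene UMIs was in siCont-LNA replicate 2 and carried no list. Of its 4710 UMIs, 240 were of rule genes (5.10%), 165 of Ctla2a, 27 of Itga2b, 23 of Gp1bb, 20 of Alox12 and 19 of Clec1b, and 0 were of Malat1 or Ptprc. A member of siFXR1-LNA replicate 1 with no list held 208 rule-gene UMIs of 2972 (6.999%) and 193 UMIs of Ctla2a. By contrast, a member of the macrophage class in siFXR1-LNA replicate 1 held 175 rule-gene UMIs of 20483 and 0 UMIs of Clec1b, Alox12, Gp1bb, Itga2b and Ctla2a. Another in siFXR1-LNA replicate 2 held 120 of 10981 and 0 of the same 5 genes. In siCont-LNA replicate 2 a member of the macrophage class held 95 of 22615 with 8 UMIs of Clec1b and 13 of Alox12.

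In other barcodes with the macrophage list, Pf4 had a UMI in 53.6%, 57.3%, 77.1% and 83.3% in library order. B cells are not known to make Pf4, and in other barcodes with the B cell list it had a UMI in 20.8%, 21.4%, 40.4% and 49.5%, at median depths of 2705, 2808, 2296 and 2503 UMIs. Ppbp was found in 0.654%, 1.48%, 6.73% and 7.11% of the macrophage-list barcodes and in 0.217%, 1.04%, 1.19% and 2.01% of the B cell list barcodes. For both chemokines the share was higher with the macrophage list, in deeper barcodes. Gp9 was found in 0.120%, 0.403%, 0.144% and 0.183% of the macrophage-list barcodes, near its share with the B cell list (0.109%, 0.459%, 0.148% and 0). Neither Gp9 nor Tubb1 was found in 14 of the 58 members of the macrophage class. The same held for 11 of the 36 of the granulocyte class and 17 of the 122 with no list. Such members met the rule through Ppbp, Pf4 and Nrgn. The source of these UMIs was not tested.

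**Figure D4:**
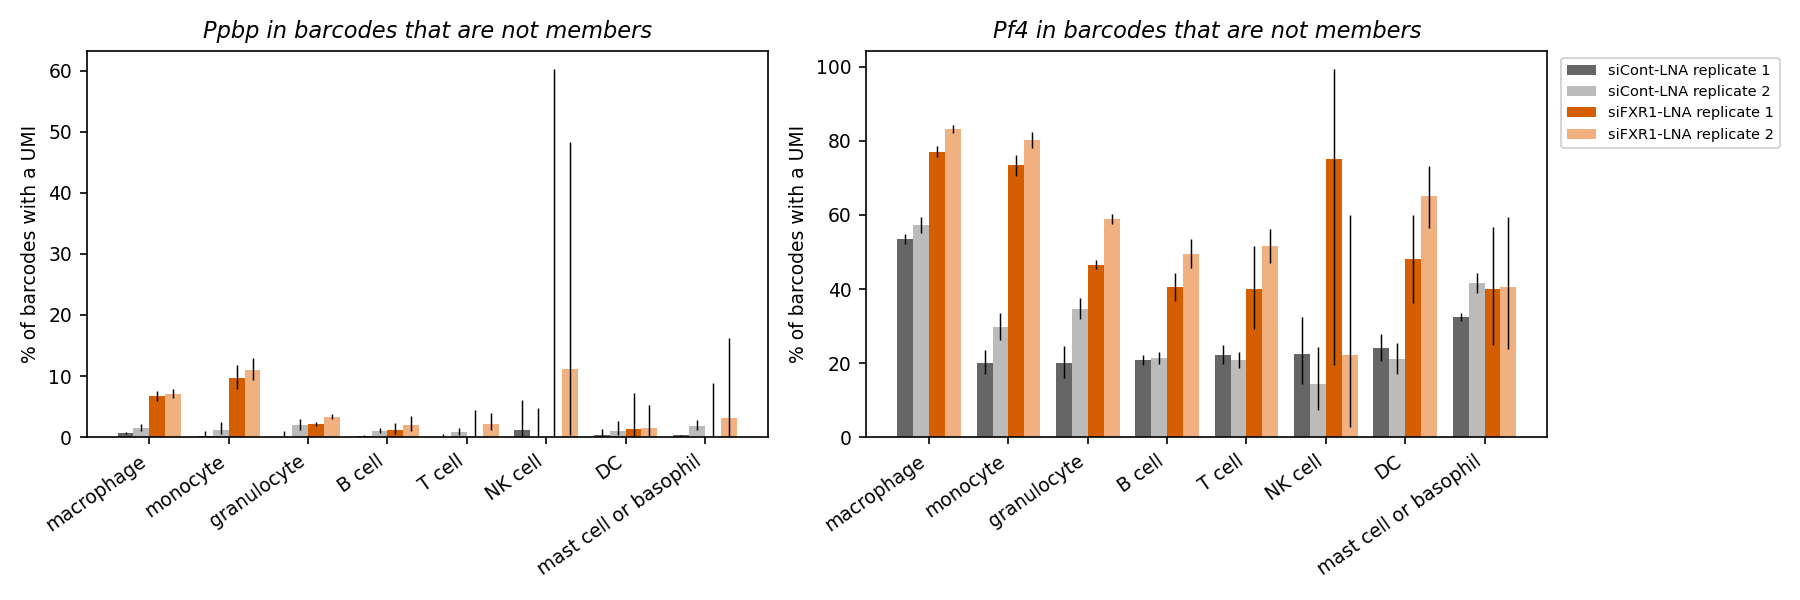
Percent of other barcodes with at least 1 UMI of Ppbp (left) and Pf4 (right), by the leukocyte list they carry, with 1 bar for each library and exact 95% binomial intervals as lines (the scales of the panels differ). Pf4 stands at 53.6 to 83.3% with the macrophage list and at 20.8 to 49.5% with the B cell list, and the NK cell list has wide intervals because few barcodes carry it.

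Members with no leukocyte list were mostly free of other lists too. Of the 122, 117 carried no list of erythroid, tumor or mesothelial, endothelial or fibroblast genes, and 12 had a UMI of Ptprc. Their most abundant gene was Gm42418, which overlaps ribosomal RNA, at 86560 CPM, and Cmss1 followed at 38516 CPM. Hbb-bs, a hemoglobin chain, had 35778 CPM, Tmsb4x 21943, Actb 11179, Ctla2a 7469 (rank 8) and Pf4 5349 (rank 10). Malat1, a nuclear RNA, had 2853, 2475, 886 and 15208 CPM in members with no list, against 5520, 4953, 3683 and 4766 CPM in other barcodes. It was lower than in other barcodes in 3 of 4 libraries and higher in siFXR1-LNA replicate 2. The value of siCont-LNA replicate 1 rested on 4 UMIs in 2 members. That of siFXR1-LNA replicate 2 rested on 428 UMIs in 10 of 17 members. The deepest of them stood apart: it was in siCont-LNA replicate 2 and held 19419 UMIs, of which 12 were of rule genes, 137 of the chemokine Cxcl13, 95 of decorin (Dcn), 51 of Igfbp7, 23 of Apln and 18 of Cpxm1, and it carried the fibroblast list.

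The libraries labelled siFXR1-LNA and siCont-LNA were compared gene by gene on the counts summed over the members of each library. Of 3877 genes tested, 52 passed (1.34%), of which 43 rose (1.11%) and 9 fell (0.232%) in siFXR1-LNA (edgeR quasi-likelihood test, Benjamini-Hochberg adjustment over all genes tested, threshold 0.05), and 434 had an unadjusted p under 0.05. All 52 had groups that did not overlap, as had 38.8% of all genes tested. The sum of siCont-LNA replicate 1 rested on 13 members, and the call counts depended on single libraries: leaving out 1 library at a time they were 0, 0, 0 and 7, in library order.

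None of the 52 was on a platelet list. Of the 86 genes on the platelet lists, 57 could be tested, and 0 rose and 0 fell. Of these 57, 8 had a positive and 49 a negative log2 fold change, and the median was -0.99 against -0.02 over all genes tested. The 57 include the 5 rule genes, 1 positive and 4 negative, which are also in the counts by list. The rule selects on their level in members, so nothing is read from those 5. Clec1b had a log2 fold change of -1.69 ± 0.72 SE (adjusted p = 0.402) and Alox12 of -1.50 ± 0.82 SE (adjusted p = 0.572). The lowest adjusted p was that of Ptgs1 (log2 fold change -1.77 ± 0.41 SE, adjusted p = 0.0705). All 13 tested cytoskeleton genes (median -0.71), all 7 adhesion receptors (-1.28), all 5 eicosanoid enzymes (-0.68) and 9 of 10 agonist receptors and signaling genes (-1.20) had negative values, as had 7 of 8 other platelet-enriched genes (-1.17), 3 of 4 transcription factors (-0.21) and 5 of 10 granule genes (-0.09).

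These signs rested on siCont-LNA replicate 2, the library with the highest platelet levels. Without it 36 of 57 platelet-list genes had a positive value, the median was 0.49, and Clec1b and Alox12 stood at 1.03 and 3.04. Where siCont-LNA replicate 1 had too few members to enter, siCont-LNA replicate 2 stood alone for its group and platelet-list genes fell more often: 34 of 68 with at least 10 rule-gene UMIs (5.21% of all 3667 genes tested), 41 of 70 with at most 10% hemoglobin (4.64% of 4763), 14 of 57 with Pf4 left out of the rule (3.11% of 1767) and 9 of 57 without the macrophage class (2.75% of 1708). Under the rule as given, leaving that library out gave 0 of 71. With all 4 libraries and no filter on low counts 9 of 85 fell (0.858% of 14564). Levels in the 2 siCont-LNA libraries were far apart and could lie on both sides of the siFXR1-LNA libraries, as for Gp1bb with 75.1, 498, 237 and 150 CPM.

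The 10 largest rises included Saa3, Lcn2, Nos2, Mt2 and the chemokine genes Cxcl2 and Cxcl3, all of which myeloid cells are known to express. Mt2, a metallothionein, had 15.03, 4.91, 573 and 945 CPM in library order (log2 fold change 6.66 ± 0.70 SE, adjusted p = 0.00218). Saa3, an acute-phase serum amyloid, had 1788, 1127, 28241 and 48614 CPM (4.76 ± 0.99 SE, adjusted p = 0.0412). Lcn2, an iron-siderophore binding protein, had 0, 106, 1679 and 3852 CPM (5.21 ± 0.91 SE, adjusted p = 0.0222), a call that DESeq2 did not make (adjusted p = 0.183). For all 3 genes both siFXR1-LNA libraries stood far above both siCont-LNA libraries. Nos2, the inducible nitric oxide synthase, had 0 UMIs in both siCont-LNA libraries and 38 and 76 in siFXR1-LNA replicates 1 and 2 (adjusted p = 0.00448), which is at least 38.7-fold higher against a floor of 3 UMIs over the group.

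The neutrophil-attracting chemokines Cxcl2 and Cxcl3 rose as well. Cxcl2 had 0, 12.3, 904 and 653 CPM (6.13 ± 0.68 SE, adjusted p = 0.00223) and Cxcl3 had 0, 2.45, 456 and 236 CPM (6.98 ± 0.79 SE, adjusted p = 0.00227). The other rises among the 10 largest were Slc7a11, the cystine transporter (5.54), Ptges, a prostaglandin E synthase (5.15), Creb5 (4.59) and Wfdc21 (4.56). In siFXR1-LNA replicate 1, 1 member held 71.0% of the Creb5 UMIs.

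These transcripts sat mainly in members that carried leukocyte genes. The macrophage class held 96.4% of Ptges UMIs, 95.2% of Mt2, 93.7% of Slc7a11, 93.2% of Saa3, 93.0% of Nos2, 80.2% of Cxcl3, 66.6% of Lcn2, 63.8% of Cxcl2 and 61.5% of Wfdc21. Members with no list held from 0% of Nos2 and Slc7a11 to 10.98% of Creb5, of which the granulocyte class held 59.8%. The granulocyte class also held 34.6% of Cxcl2, 34.3% of Wfdc21, 29.2% of Lcn2 and 19.1% of Cxcl3 UMIs. The share of members in the macrophage class did not separate the groups, and the classes are not equally deep. Of all member UMIs, the macrophage class held 152895 of 232251 in siFXR1-LNA replicate 1 and 174026 of 232876 in replicate 2. The granulocyte class held 35360 and 30706. The macrophage class values for Lcn2, Cxcl2 and Wfdc21 were thus near or below its part of all UMIs in these libraries.

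The 9 genes that fell included 4 mast cell genes and Lyve1 and Fcna, which resident macrophages are known to express. Cma1 had 376, 376, 12.9 and 8.59 CPM (log2 fold change -5.07 ± 0.54 SE, adjusted p = 0.00218), and Tpsb2 (-4.94), Mcpt4 (-4.47) and Cpa3 (-4.08), a carboxypeptidase of mast cells, fell with it. These 4 are all the genes of the mast cell or basophil list that could be tested. Members with no list held 38.5 to 45.4% of their UMIs. Lyve1, encoding a hyaluronan receptor, had 526, 73.6, 8.61 and 4.29 CPM (-5.09 ± 1.00 SE, adjusted p = 0.0318), with 21 of its 35 UMIs in siCont-LNA replicate 1 in 1 member. Fcna, ficolin A, had 3486, 297, 64.6 and 90.2 CPM (-4.45 ± 0.93 SE, adjusted p = 0.0412), a call that DESeq2 did not make (adjusted p = 0.0534). The macrophage class held 92.6% of Lyve1 and 96.7% of Fcna UMIs. Of all member UMIs it held 60460 of 66543 in siCont-LNA replicate 1 and 178048 of 407388 in siCont-LNA replicate 2. Cnp (-3.04), Isg15, an interferon-induced gene (-2.96), and Hist1h1b, a histone gene (-2.59), were the others, and in siCont-LNA replicate 2 1 member held 75.7% of the Hist1h1b UMIs.

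Other lists did not pass. Of the macrophage list 8 genes were tested, 4 with a positive and 4 with a negative value, of the granulocyte list 6, 5 of them positive, of the monocyte list 4, 3 of them positive, and of the genes shared by leukocytes 5, 2 of them positive. None of the genes of the B cell, T cell, NK cell and endothelial lists had enough counts to be tested.

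**Figure D5:**
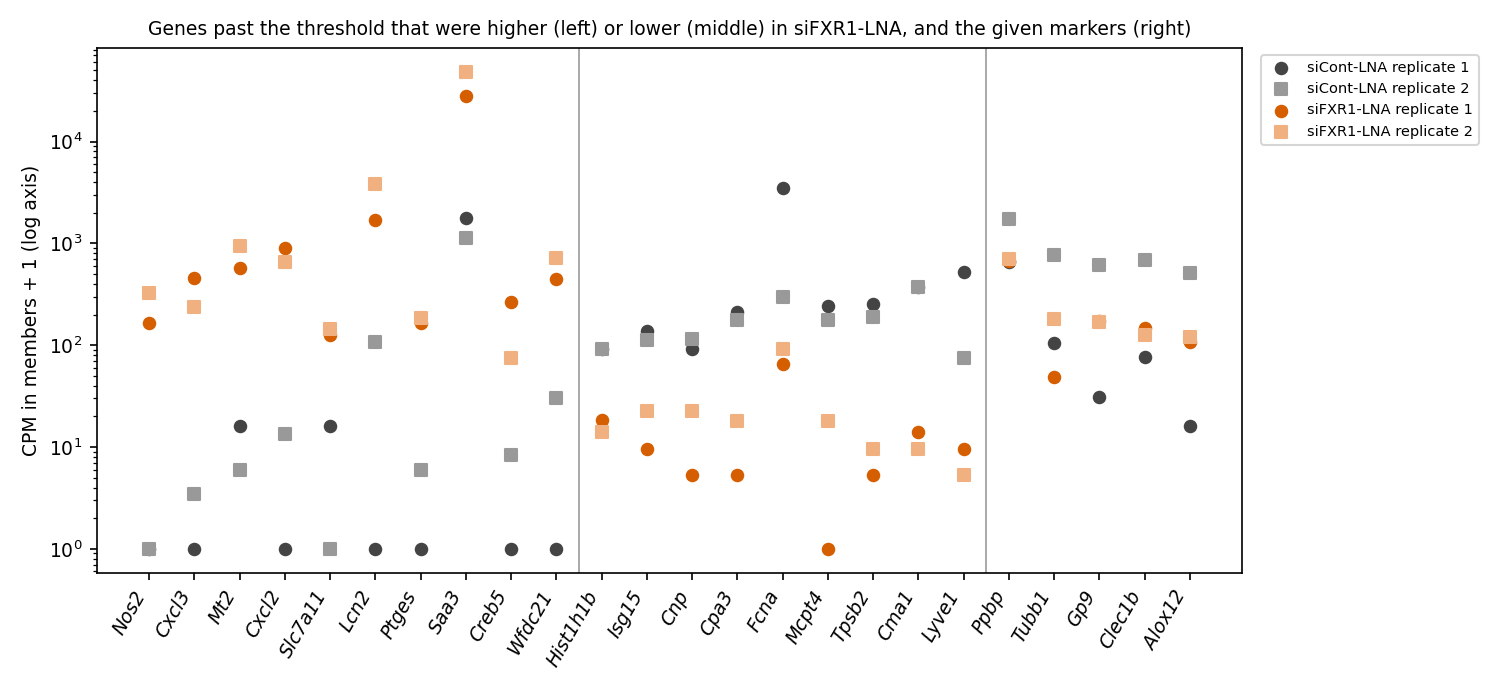
CPM + 1 in the members of each library (log axis), 1 point for each library, for the 10 largest rises, the 9 falls and the 5 given markers. For genes that rose, such as Saa3 at 1788 and 1127 CPM in siCont-LNA and 28241 and 48614 CPM in siFXR1-LNA, the groups do not overlap, while for Clec1b the 2 siCont-LNA libraries lie on both sides of the siFXR1-LNA libraries.

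The same genes were followed in the other barcodes of each library. All 52 had the same sign there. Saa3 had 535, 665, 20017 and 32473 CPM and Cma1 had 546, 237, 28.2 and 36.8 CPM, so the levels in the members moved with those of the whole library. In the other barcodes 0 of 17660 genes passed the same edgeR test (0%), with a lowest adjusted p of 0.117 and 3563 genes at an unadjusted p under 0.05. A test of the difference itself, with the library as a block, found that 23 of 15724 genes (0.146%) changed differently in members than in other barcodes, 19 of them lower and 4 higher, and 0 of these were among the 52. Leaving out 1 library at a time gave 122, 29, 3 and 2 such genes, in library order.

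Of the platelet-list genes outside the rule, Cavin2 and Clu passed this test of the difference. Cavin2, a caveola-associated protein of platelets, had 45.1, 147, 25.8 and 21.5 CPM in members and 12.8, 3.49, 16.1 and 7.95 CPM in other barcodes (difference of log2 fold changes -3.38 ± 0.74 SE, adjusted p = 0.0155). Its levels in members came from 3, 60, 6 and 5 UMIs, most of them in siCont-LNA replicate 2. Clu, clusterin, had 225, 768, 422 and 313 CPM in members and 291, 86.5, 734 and 356 CPM in other barcodes (-2.24 ± 0.53 SE, adjusted p = 0.028). Ppbp had 1.80, 3.26, 19.6 and 33.2 CPM in other barcodes, higher in both siFXR1-LNA libraries. It is among the 23 genes, but the rule selects on its level in members and nothing is read from its test.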

How the data were processed

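For each of the 4 libraries the authors deposited raw UMI counts per gene and barcode, not normalized. Per the labels the reads were processed with Cell Ranger 7.0.0 against mm10, and the labels and the study's methods name different kit and Cell Ranger versions. The limits on genes (100 to 4800) and mitochondrial UMIs (15%) follow the methods. The barcodes within them were more numerous than the cells the study analysed. Per its methods the study left out a siFXR1-LNA replicate that had fewer reads and cells. Both siFXR1-LNA libraries are used here. No doublet caller was run. The members, gene lists and tests were chosen with earlier results of these data known.

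Counts of all members of a library were added up, since cells are not replicates, and tested with edgeR 4.0.16 (TMM factors, genes kept by filterByExpr, and a quasi-likelihood test at a Benjamini-Hochberg threshold of 0.05) in R 4.3.3. The scripts were tested on simulated counts with known changes. Whether the change between groups differed between members and other barcodes was tested with the library as a block. Shares and medians were compared with two-sided exact permutation tests over libraries, with 17 quantities in the family. Alternatives were DESeq2 1.42.0, RLE factors, no filter, other limits of the rule, subsets of members and leaving out each library. Genes were named by rule: the rule genes and given markers, up to 4 genes of each platelet list and 2 of each other list with the most UMIs in members, the 15 largest ratios, and the 10 largest rises and falls past the threshold in groups that did not overlap. Csf1r, C1qc, Retnlg, Csf3r, the receptors and factors with few UMIs, and genes at 0 were named beside them after their values were seen. Of 32285 gene identifiers, 32158 were found in the GRCm38 annotation. Ahsp, of the erythroid list, was not analysed here.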

Additional observations from a re-analysis of the deposited data

Results flagged for a closer look

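The change between libraries labelled siCont-LNA and siFXR1-LNA differed between members and other barcodes for 23 genes, by the interaction term of edgeR's quasi-likelihood test with the library as a block. Differences are the log2 fold change in members minus that in other barcodes. On the lists and outside the rule were Cavin2 (-3.38, adjusted p = 0.0155), Dcn (-2.28, adjusted p = 0.0324), Clu (-2.24, adjusted p = 0.028) and Ly6c2 (2.14, adjusted p = 0.0387). The rule gene Ppbp is among the 23, and nothing is read from it because the rule selects on its level in members. In this test 572 genes had an unadjusted p under 0.05.

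Cavin2 and Clu, of the platelet lists, did not pass within the members alone (adjusted p = 0.119 and 0.839) or in the other barcodes alone (adjusted p = 0.533 and 0.254). Dcn, a matrix proteoglycan, had 15.03, 309, 310 and 133 CPM in members in library order, and the deepest member with no leukocyte list held 95 of its 126 UMIs in siCont-LNA replicate 2. That 1 barcode also held over 90% of the UMIs of Cxcl13 (137 of 138), Igfbp7 (51 of 52), Apln (23) and Cpxm1 (18) in that library, which were 4 of the 23 genes. Without it 19 genes were called. Ly6c2, a monocyte gene, had 15.03, 179, 306 and 923 CPM in members and 200.5, 504, 285 and 573 CPM in other barcodes.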

How the results depend on the processing

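The difference in the share of members was negative under each other rule or limit tried (-0.613 to -0.0525 percentage points) and ran from -0.394 to 0.140 without 1 library, positive without siCont-LNA replicate 2. The difference in the share with a leukocyte list (-3.01) turned to 2.00 with at least 10 rule-gene UMIs, 4.12 with at most 10% hemoglobin, 2.52 with lists at 10 UMIs and 8.88 with the mast cell list not counted (added after seeing the data). It was -30.8 when thinned to 1000 UMIs, -24.6 with at least 500 genes and -14.1 with lists at 2 UMIs, and ran from -24.3 (without siCont-LNA replicate 2) to 18.3 (without siCont-LNA replicate 1). The 52 genes called in members became 332 with at least 10 rule-gene UMIs, 84 with Pf4 left out of the rule, 359 with at most 10% hemoglobin, 29 in members with no list and 83 without the macrophage class (added after seeing the data), all 5 without siCont-LNA replicate 1, which then had too few members. They became 90 in members with a list and 223 with no filter. DESeq2 called 40, of which 33 were among the 52. Without 1 library 0 to 7 genes were called, with 215 to 645 genes at an unadjusted p under 0.05, and a group left with 1 library was assumed to vary like the other. The cause was not tested. The 23 genes with a different change became 6 with no filter and 2 to 122 without 1 library (122 without siCont-LNA replicate 1, 2 without siFXR1-LNA replicate 2). Ly6c2 turned to -2.81 in members with no list. Without 1 library Clec1b ran from -2.41 to 1.03, Alox12 from -2.25 to 3.04, Fxr1 from -0.0053 to 1.63 and Dcn from -3.98 to 2.72, each turning sign without siCont-LNA replicate 2. For the named genes, 216 of 256 results under alternatives other than leaving out a library kept direction and call, 30 lost the call, 10 gained it and 0 turned.

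Replicate numbers did not pair the libraries (correlation of deviations -0.0367), and with the replicate block 10 genes were called, 7 higher and 3 lower. With 2 libraries in each group both replicate numbers give the same correlation by construction, so it is a single value.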
